A study of Mus musculus with 6 samples.

Results

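Vim, Actr2, Rab10, Nckap1l and Mapre1 are 5 genes of the cytoskeleton and of membrane traffic that were read in gene-specific TAIL-seq libraries of macrophages. They were chosen by name, with their counts in these libraries already known, and are 5 of 56262 gene identifiers in the count tables, of which 964 had a read in any library. The cells were bone marrow-derived macrophages (BMDMs), which are cultured from marrow progenitors, here of 7-week-old female C57BL/6J mice, either wild type or Tut7-/-. Tut7 encodes a terminal uridyltransferase that adds uridines to RNA 3′ ends, and the knockout line was made by CRISPR/Cas9 with guides in introns. Progenitors of both genotypes were grown for 7 days with 20% L929-conditioned medium, followed by 10 ng/ml M-CSF overnight. They were left untreated (Ctrl) or treated for 2 h or 4 h with lipopolysaccharide (LPS), a bacterial cell wall component that macrophages sense through Toll-like receptor 4. Each genotype and time has 1 of the 6 libraries. No value here has a replicate, therefore, and no test between conditions was run. The submitters mention duplicates, but not, in the sources used here, whether a library pools them.

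Here a linker is ligated to RNA 3′ ends and chosen transcripts are amplified between a gene-specific primer and the linker. A read count is therefore a share of an amplified pool, not an expression level, and fewer cells and less RNA per cell cannot be told apart. The sources used here do not say whether any primer was aimed at the 5 genes. The libraries held 21408 to 56718 reads and 230 to 401 genes with a read. Zc3h12a, the RNase Regnase-1, took 45.1% to 62.5% of each library. The knocked-out gene had 0 reads in every library, so the counts do not check the genotype label. Of 8 macrophage markers only Lyz2 was read, with 2 reads in all, and all markers of T cells, B cells, neutrophils, stromal cells, dendritic cells and erythroid cells were at 0, so this targeted assay does not check the cell type. All intervals are at 95% and take in counting error alone, as PCR copies carry no molecular identifiers and are not independent.

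Macrophages reshape their cytoskeleton when they sense bacteria, spread, crawl and engulf particles. Branched actin at the cell edge is nucleated by the Arp2/3 complex, which is switched on there by the WAVE complex. Intermediate filaments resist mechanical strain, microtubules carry cargo, and Rab GTPases direct vesicles to their target membranes. Vim encodes vimentin, the intermediate filament protein of mesenchymal and myeloid cells. Actr2 encodes ARP2, an actin-related subunit of the Arp2/3 complex. Nckap1l encodes HEM1, the WAVE complex subunit of blood cells. Mapre1 encodes EB1, which binds growing microtubule ends. Rab10 encodes a GTPase of the secretory and endosomal pathways.

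All 5 are protein-coding genes, and their mm10 positions follow. Vim (ENSMUSG00000026728.9) is on the plus strand at chr2:13573927-13582826. Mapre1 (ENSMUSG00000027479.14) lies on the plus strand at chr2:153741274-153773310. Actr2 (ENSMUSG00000020152.7) lies on the minus strand at chr11:20062304-20112913. Rab10 (ENSMUSG00000020671.9) lies on the minus strand at chr12:3247428-3309969. Nckap1l (ENSMUSG00000022488.9) lies on the plus strand at chr15:103453794-103498810.

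Together the 5 genes took 17.2% of reads in wild-type Ctrl and 12.2% in Tut7-/- Ctrl, but 1.51% to 2.49% in the 4 LPS libraries. Vim alone held 8725 of their reads and ranked the sixth of all genes by reads over the 6 libraries. Actr2 had 1438 reads, Rab10 630, Nckap1l 105 and Mapre1 80. Vim, Actr2 and Rab10 were read in every library, whereas Nckap1l and Mapre1 were each at 0 reads in 2 libraries.

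**Figure D1:**
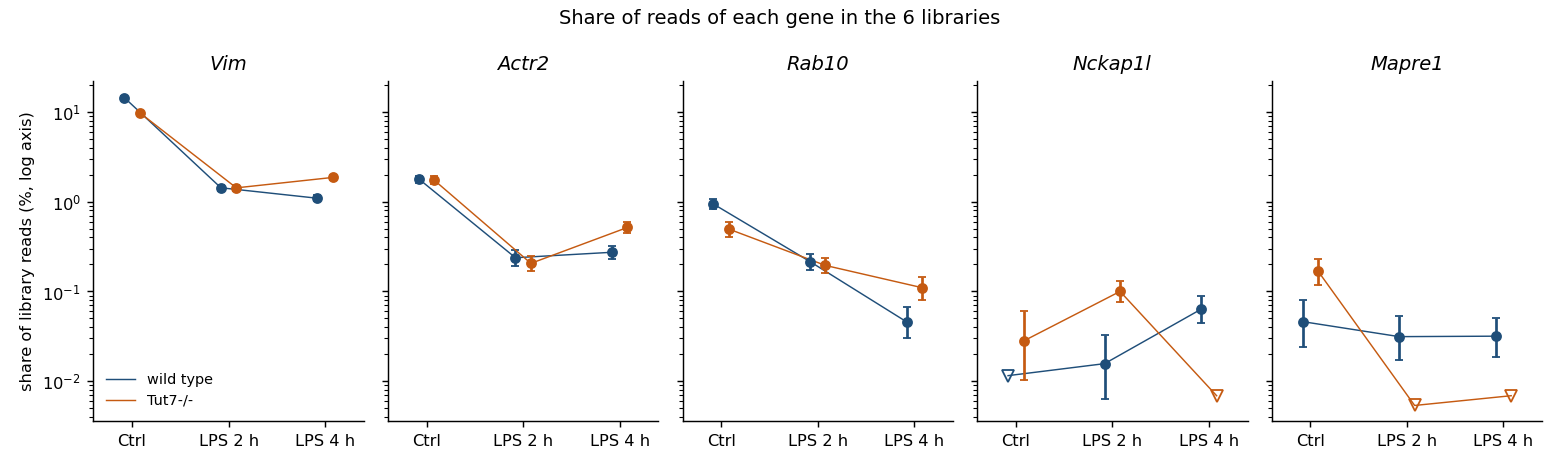
Share of each gene in the reads of a library (percent, log axis) for Ctrl, LPS 2 h and LPS 4 h in wild type (blue) and Tut7-/- (orange), with exact 95% intervals for counting error. Open triangles mark libraries with 0 reads, drawn at the share that 3 reads would give. Vim lies at 14.4% and 9.79% in the Ctrl libraries and between 1.09% and 1.87% after LPS, and Mapre1 is at 0 in both Tut7-/- LPS libraries.

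Vim was the intermediate filament gene of the set, and its share was lower in every LPS library than in either Ctrl library. In wild type it had 3760 of 26027 reads in Ctrl, 638 of 44626 at 2 h and 620 of 56718 at 4 h. In Tut7-/- it had 2097 of 21408, 798 of 55922 and 812 of 43540. The wild-type shares were 14.4%, 1.43% and 1.09%, and those of the knockout 9.79%, 1.43% and 1.87%. In Ctrl the knockout share was 0.678-fold (0.642 to 0.715) that of wild type, and it was lower under every scaling run. At 2 h it was 0.998-fold (0.898 to 1.11), and DESeq2 size factors moved it to a log2 ratio of 0.61. At 4 h the knockout share was 1.71-fold (1.54 to 1.90) that of wild type. From 2 h to 4 h the wild-type share went to 0.765-fold (0.684 to 0.855) and the knockout share to 1.31-fold (1.18 to 1.44), in opposite directions. TMM factors turned the wild-type direction (log2 0.28) and brought the genotypes level at 4 h (log2 -0.01).

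Actr2, of the actin-nucleating Arp2/3 complex, also had a lower share in each LPS library than in either Ctrl library. Wild type gave 466, 106 and 155 reads in Ctrl, at 2 h and at 4 h, whereas Tut7-/- gave 371, 115 and 225. The wild-type shares were 1.79%, 0.237% and 0.273%, and the Tut7-/- shares 1.73%, 0.206% and 0.517%. The genotypes were close in Ctrl, at 0.968-fold (0.842 to 1.11), and at 2 h, at 0.866-fold (0.659 to 1.14). At 4 h the knockout share was 1.89-fold (1.53 to 2.34) that of wild type, and log2 0.14 remained of this log2 ratio of 0.92 with TMM factors. From 2 h to 4 h the wild-type share changed by a factor of 1.15 (0.893 to 1.49) and the knockout share by a factor of 2.51 (2.00 to 3.17).

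Rab10, the membrane traffic gene of the set, had its lowest share in both genotypes at 4 h. Over Ctrl, 2 h and 4 h, wild type gave 245, 96 and 26 reads, and Tut7-/- gave 106, 109 and 48. As shares, these were 0.941%, 0.215% and 0.0458% for wild type, against 0.495%, 0.195% and 0.110% for Tut7-/-. The wild-type shares were 4.38-fold (2 h) and 20.5-fold (4 h) below Ctrl, and the Tut7-/- shares 2.54-fold and 4.49-fold below it. As shares of the library, the genotypes thus crossed. Relative to wild type, the knockout was at 0.526-fold (0.415 to 0.663) in Ctrl, 0.906-fold (0.682 to 1.20) at the earlier LPS time and 2.41-fold (1.46 to 4.04) at the later. Relative to the median gene of each pair, the log2 ratios of knockout to wild type were -1.20, -0.04 and 0.87. At 4 h, log2 0.47 was left of 1.25 under TMM scaling, below the 2-fold threshold, as was 0.82 with DESeq2 size factors. Per read of Vim or of Actr2 in the same library, Rab10 at 4 h was 1.41-fold (0.865 to 2.30) and 1.27-fold (0.757 to 2.14) that of wild type in the knockout. Both intervals include 1.

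Nckap1l, the blood cell subunit of the WAVE complex, had 0, 7 and 36 reads over the wild-type times and 6, 56 and 0 reads over the Tut7-/- times. Its highest library was thus LPS 4 h in wild type and LPS 2 h in the knockout, where LPS 4 h had no read. In wild type the share at 4 h was 4.05-fold (1.78 to 10.8) that at 2 h. With a floor of 3 reads in place of 0 in Ctrl, it was 5.51-fold higher than there, and the exact interval starts at 4.25-fold. In the knockout the share at 2 h was 3.57-fold (1.54 to 10.1) that of Ctrl. At 4 h, with the floor of 3 reads in place of 0, it was 14.5-fold lower than at 2 h, and the exact interval ends at 0.0874-fold. The 0 reads at 4 h in the knockout have an exact upper limit of 0.00847% (the floor of 3 reads is 0.00689%), against 0.0635% measured in wild type at that time. At 2 h the knockout share was 6.38-fold (2.90 to 16.6) that of wild type.

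Mapre1, the microtubule end-binding gene, was read in every wild-type library, with 12, 14 and 18 reads. The knockout had 36 reads in Ctrl and 0 in each LPS library. In wild type its share was 0.0461% in Ctrl, 0.0314% at 2 h and 0.0317% at 4 h, and the intervals of the ratios to Ctrl include 1 (0.292 to 1.61, and 0.314 to 1.57). In the knockout the share was 0.168% in Ctrl, which was 3.65-fold (1.86 to 7.70) that of wild type. With a floor of 3 reads in place of 0, it was then 31.4-fold lower at 2 h and 24.4-fold lower at 4 h. The exact intervals end at 0.0413-fold and 0.0531-fold of Ctrl. As shares of the library, the wild-type values thus did not differ beyond counting error. Other scalings turned them. The wild-type log2 ratio to Ctrl went from -0.56 to 1.15 at 2 h and from -0.56 to 1.82 at 4 h under TMM scaling, and to 2.10 and 3.26 relative to the median gene.

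Such gaps between libraries were common among genes of this depth. Over 52 genes with 50 to 200 reads in all, 33 (63.5%) were at 0 in at least 1 library and 19 (36.5%) in 2 or more. The highest library held a median of 49.6% of a gene's depth-scaled reads (quartiles 42.1% and 64.2%), against 48.3% for Nckap1l and 60.6% for Mapre1. This description was added after the counts had been seen, and by it neither gene stood outside the others. Vim, Actr2 and Rab10, with more reads, had 48.1%, 37.6% and 47.0% in their highest library.

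Counts of members past a 2-fold threshold were set beside those of all genes that had at least 10 reads in the pair. In wild type, 3 of 4 members were 2-fold or more lower at LPS 2 h than in Ctrl (Vim, Actr2 and Rab10) and 0 were higher. Of 154 genes, 67.5% were lower and 18.2% higher. At 4 h, 3 of 5 were lower and Nckap1l was higher, beside 70.9% lower and 18.5% higher of 151 genes. In the knockout, 4 of 5 members were lower at 2 h and Nckap1l was higher, beside 74.1% and 16.5% of 170 genes. At 4 h, 4 of 4 were lower, beside 77.1% lower and 13.4% higher of 157 genes. Lower shares after LPS were thus common over all genes. With the median gene of each pair set to 0, the lower and higher genes numbered 63 and 61 at 2 h and 59 and 67 at 4 h for wild type, and 71 and 63, then 67 and 59, for Tut7-/-. Under TMM scaling there were 76 lower and 48 higher genes, then 80 and 45, for wild type, against 86 lower and 43 higher, then 96 and 36, for Tut7-/-.

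From 2 h to 4 h in wild type, Rab10 was 2-fold or more lower and Nckap1l higher among 5 members, beside 46.6% and 25.2% of 103 genes. In the knockout, Nckap1l was lower and Actr2 higher among 4 members, beside 38.3% and 29.0% of 107 genes. Between genotypes in Ctrl, Mapre1 was higher in the knockout and no other of 4 members passed, beside 26.2% lower and 39.3% higher of 191 genes. At 2 h, Mapre1 was lower and Nckap1l higher among 5 members, beside 33.9% and 28.7% of 115 genes. At 4 h, Nckap1l and Mapre1 were lower and Rab10 higher among 5 members, beside 32.0% and 37.1% of 97 genes.

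**Figure D2:**
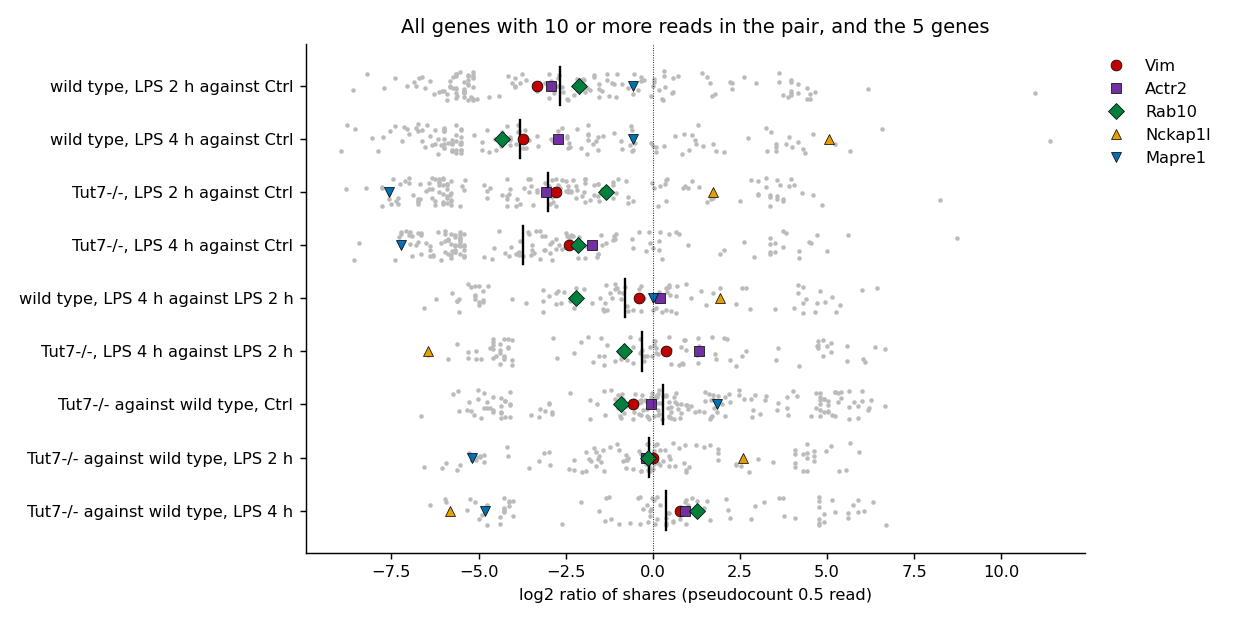
Log2 ratio of shares in 9 comparisons (x axis, pseudocount 0.5 read) for every gene that had at least 10 reads in the pair (grey points, spread vertically at random) and for the 5 genes (coloured symbols). Black lines mark the median gene, which lies between -3.82 and -2.66 in the 4 comparisons of LPS with Ctrl. Vim, Actr2 and Rab10 lie within 2 log2 units of the median line in all 9 comparisons.

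The median gene itself had a log2 ratio to Ctrl of -2.66 (2 h) and -3.82 (4 h) for wild type, and of -3.02 and -3.72 for Tut7-/-. Set against it in the same order, the log2 ratios of Vim were -0.68, 0.09, 0.24 and 1.33. Those of Actr2 were -0.25, 1.11, -0.05 and 1.97, and those of Rab10 were 0.53, -0.52, 1.68 and 1.56. The size of every fold to Ctrl above thus depends on what the shares are taken of, and in some comparisons the direction for Vim, Actr2, Rab10 and, in wild type, Mapre1 does too. TMM factors alone moved all log2 ratios to Ctrl by 1.71 to 2.38.

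**Figure D3:**
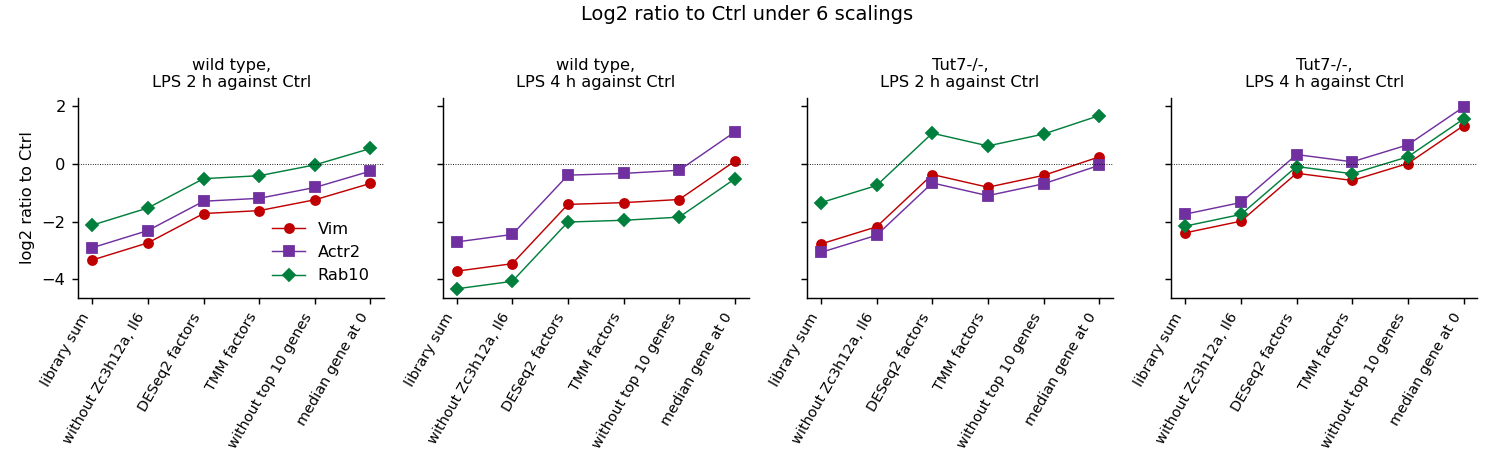
Log2 ratio to Ctrl (y axis) of Vim, Actr2 and Rab10 under 6 scalings (x axis) in each genotype and LPS time. All 3 genes shift together from one scaling to the next, so their distances from each other within a panel do not change, while Rab10 at 2 h in Tut7-/- goes from -1.34 with the library sum to 0.62 with TMM factors.

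Ratios between 2 members within a library do not depend on the library total, and their changes were the same under every scaling. The reads of 2 genes also depend on how each was primed, so only the change of such a ratio between libraries is described. Such a change is free of priming only where priming was alike in both libraries, which was not tested. Some Rab10 reads began with the primer for Il6, as described below. Il6 itself had 0, 1728 and 2925 reads over the wild-type times and 2, 1991 and 2141 over those of Tut7-/-. Rab10 per Vim was highest at 2 h in both genotypes. There were 6.52 Rab10 reads per 100 Vim reads in wild-type Ctrl (5.70 to 7.42), 15.05 at 2 h (12.01 to 18.7) and 4.19 at 4 h (2.72 to 6.20). In the knockout there were 5.06 (4.12 to 6.15), 13.7 (11.1 to 16.7) and 5.91 (4.32 to 7.91). The LPS 2 h library stood above Ctrl and LPS 4 h in each genotype, with intervals that do not overlap. Relative to Ctrl, the ratio at 2 h was 2.31-fold (1.80 to 2.97) for wild type, and for Tut7-/- it was 2.70-fold (2.04 to 3.57). From 2 h to 4 h it came down 3.59-fold in wild type, and 2.31-fold in Tut7-/-. At 4 h the wild-type ratio was at 0.644-fold (0.426 to 0.973) of Ctrl, whereas the Tut7-/- interval includes 1 (1.17-fold, 0.824 to 1.66).

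Rab10 per Actr2 had its maximum at the same time. In wild type there were 52.6 Rab10 reads per 100 Actr2 reads in Ctrl, 90.6 at 2 h and 16.8 at 4 h. In the knockout there were 28.6, 94.8 and 21.3. The Ctrl ratio was 0.543-fold (0.417 to 0.709) in the knockout relative to wild type, and at 2 h and 4 h the intervals include 1 (0.715 to 1.53, and 0.757 to 2.14). From Ctrl to 2 h the ratio changed by a factor of 1.72 (1.26 to 2.36) in wild type, and of 3.32 (2.36 to 4.66) in Tut7-/-.

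Actr2 per Vim was highest at 4 h in both genotypes. There were 12.4, 16.6 and 25.0 Actr2 reads per 100 Vim reads over the wild-type times, and 17.7, 14.4 and 27.7 over those of Tut7-/-. At 4 h the wild-type ratio was 2.02-fold (1.65 to 2.47) that of Ctrl, and the Tut7-/- ratio 1.57-fold (1.303 to 1.88). At 2 h these were 1.34-fold (1.07 to 1.68) and 0.815-fold (0.651 to 1.02). The higher shares of Vim and Actr2 at 4 h in the knockout went together, since their ratio there was 1.11-fold (0.881 to 1.39) that of wild type. This was not particular to the pair. Rab10 per Vim was 1.41-fold (0.865 to 2.30) that of wild type, an interval that includes 1, and the median gene was also higher (log2 0.38).

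**Figure D4:**
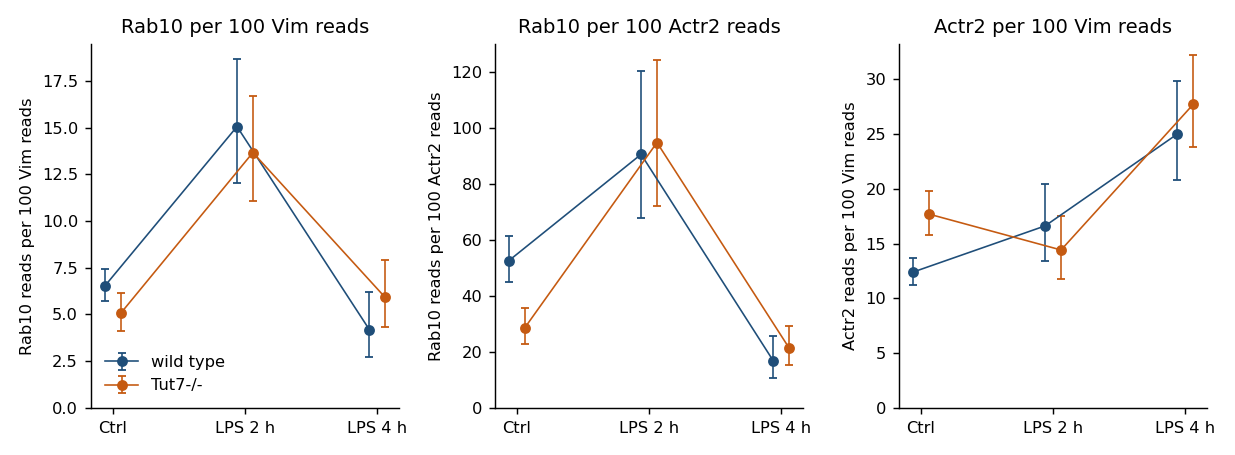
Reads of a gene per 100 reads of another (y axes) in Ctrl, LPS 2 h and LPS 4 h for wild type (blue) and Tut7-/- (orange), with exact 95% intervals for counting error. Rab10 per Vim and Rab10 per Actr2 are highest at 2 h in both genotypes (15.05 and 13.7, and 90.6 and 94.8), and Actr2 per Vim is highest at 4 h (25.0 and 27.7).

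Ratios to Nckap1l and Mapre1 rested on fewer reads. Nckap1l per 100 Vim reads was 0, 1.10 and 5.81 over the wild-type times, while the Tut7-/- values were 0.286, 7.02 and 0. The Tut7-/- value at 2 h was 24.5 times that of Ctrl (10.5 to 57.1), and the wild-type value at 4 h 5.29 times that at 2 h (2.34 to 11.98). Mapre1 per 100 Vim reads was 0.319, 2.19 and 2.90 over the wild-type times, so that LPS values were 6.88 times (3.17 to 14.9) and 9.10 times (4.36 to 18.98) that of Ctrl. In the knockout it was 1.72 in Ctrl and 0 in both LPS libraries.

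The spread between genotypes was also described over all genes, as the libraries hold no repeat. It takes in any effect of genotype, so it does not stand in for a repeat. For LPS 2 h against Ctrl, the log2 ratios of 89 genes in the 2 genotypes lay apart by a median of 1.40 after the median difference was taken off. Vim (0.57), Actr2 (-0.15) and Rab10 (0.80) were closer than that, and Mapre1 (-7.00) was farther apart than 84 of the 89. Against Ctrl at 4 h, with 77 genes and a median gap of 1.40, Vim was at 1.502, Actr2 at 1.14, Rab10 at 2.35, farther apart than 47 of them, and Mapre1 at -6.48. For LPS 4 h against LPS 2 h, with 56 genes and a median gap of 1.25, Nckap1l was at -8.77, farther than 54 of them. Between genotypes, the LPS ratios of Vim, Actr2 and Rab10 thus lay no farther apart than those of many other genes. This spread takes in genes with far fewer reads, whose counting error is larger, and it was not matched for depth. It therefore cannot show whether such gaps were usual for genes read as often as Vim, Actr2 and Rab10. The direct ratios of knockout to wild type were not set against it. Counting error alone did not cover all genotype differences of Vim, Actr2 and Rab10.

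Rab10 was also met in the lists of Il6 reads, which hold read sequences from 4 of the libraries that begin with the forward primer for Il6. The 20 bases after the primer matched a Rab10 transcript exactly in 1 of 277 reads in wild-type Ctrl, 5 of 1711 in wild-type LPS 4 h, 2 of 207 in Tut7-/- Ctrl and 0 of 1696 in Tut7-/- LPS 4 h. These are shares of 0.361% (0.00914% to 1.99%), 0.292% (0.0949% to 0.681%) and 0.966% (0.117% to 3.45%), and the 0 of 1696 reads have an exact upper limit of 0.217% (the floor of 3 reads is 0.177%). No other member was matched in this way. Il6 itself was matched by 564 reads in wild-type LPS 4 h and 523 in Tut7-/- LPS 4 h, and by 0 in the Ctrl lists. In the annotated Il6 transcript the primer site lies 20 bases from the end, so a match there needed every base up to that end. Il6 reads that ended earlier were missed, and the counts of Il6 and Rab10 are therefore not comparable.

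All 8 Rab10 reads began at the same position of the annotated protein-coding transcript of Rab10. The 27 bases just before it were aligned to the primer, and both are shown 5′ to 3′ because the reads start at their junction. Capitals mark the bases of the last 16 that are the same in both.
Il6 primer: tgtttagactgTCTTCAAACAAAtAAA
Rab10: tattataatttTCTTCAAACAAAcAAA
The Rab10 stretch lies on the minus strand at chr12:3249597-3249623 (mm10), in the 3′ untranslated part of exon 6 of 6 and 2169 bases from the annotated transcript end. Of its last 16 bases, 15 were the same as in the primer. The difference was T24C, with positions counted from 1 at the primer's 5′ end and the primer's base given first. Over all 27 bases, 20 were the same.

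A match of 15 or more of these 16 letters on the transcript strand was found in 7 of 21901 protein-coding genes (0.0320%), with any annotated protein-coding transcript searched. The 16 bases start right after a difference from Rab10 (G11T), and Rab10 itself matches at 15 of them. Its place among the 7 was thus fixed by the window and the cut-off, and the share of genes is no independent background for it. Of the 7, 4 had a read in the count tables and 3 had 0, whereas 964 of all 56262 gene identifiers, of any type, had a read. This contrast is no independent comparison either. Il6 as the target and Rab10 as the gene behind the window were bound to be among the 4, and the background is not limited to protein-coding genes. The 4 were Il6, which is the target of the primer, Rab10 with 630 reads, Nup155, a nuclear pore protein, with 60, and Hook3 with 7. The best match to this primer was 12 of 16 in Actr2 and Mapre1 and 10 of 16 in Vim and Nckap1l. Other primers, such as that for Zc3h12a, were not searched. The Rab10 reads had 19 to 107 bases between primer and linker and ended 2062 to 2150 bases before the annotated transcript end, 5 of the 8 at the same base. These ends thus lay inside the annotated transcript. Whether the other Rab10 reads of the count tables began at this place was not tested, since the tables hold no sequences.

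The cytoskeleton and traffic genes outside the set were read sparsely. Lists of such genes, chosen with earlier results known, named 145 further genes, of which 20 had a read and 12 had 10 or more. For LPS 2 h against Ctrl, 6 of 7 that could be compared were 2-fold or more lower and 1 higher in each genotype. Of all genes, 67.5% were lower and 18.2% higher in wild type, and 74.1% and 16.5% in Tut7-/-. The list medians were -2.98 (wild type) and -4.19 (Tut7-/-) on the log2 scale, beside -2.66 and -3.02 over all genes. At 4 h, 7 of 7 were lower in wild type and 5 of 6 in the knockout, beside 70.9% and 77.1% of all genes. The list medians there were -3.33 and -5.70, beside -3.82 and -3.72 over all genes. Counts of so few genes do not set the lists apart from all genes. None of the subunits of the Arp2/3 complex other than Actr2 had 10 reads.

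Among actin-binding genes, Lcp1 (L-plastin, an actin bundler of blood cells) had close shares in the genotypes, at 0.906-fold to 0.939-fold of wild type in the knockout with intervals that include 1. It had 55, 17 and 23 reads over the wild-type times and 42, 20 and 16 over those of Tut7-/-. Relative to Ctrl, its wild-type share was at 0.180 (0.0981 to 0.315) at 2 h and at 0.192 (0.113 to 0.318) at 4 h, against 0.182 and 0.187 for Tut7-/-. Myl6, a myosin light chain, had 12, 3 and 1 wild-type reads and 4, 25 and 15 Tut7-/- reads, with 6.65-fold (2.03 to 34.4) the wild-type share at 2 h. Others were confined to 1 library or nearly so. Plec, the linker of intermediate filaments, had 37 of its 43 reads in wild-type LPS 2 h. Dync1h1, the heavy chain of the dynein motor, had all 31 of its reads in Tut7-/- Ctrl, the library in which Mapre1 was also highest. In the traffic list no gene other than Rab10 reached 30 reads.

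Among the 40 genes with 100 or more reads, Actr2 had the profile over the 6 libraries nearest to that of Vim, and Vim the one nearest to that of Actr2. After each profile of log2 shares was centred, they differed by 0.41 (root mean square), against a median of 1.48 between Vim and all of these genes. The next for both was Lcp1, at 0.42 from Vim and 0.43 from Actr2. The third was Tlk1, a kinase of chromatin assembly, for Vim (0.57) and Pi4k2a, a lipid kinase of endosomes, for Actr2 (0.60). Rab10 was nearest to mt-Atp6, a mitochondrial ATP synthase subunit (0.53), then to Mfhas1 (0.58) and Tlk1 (0.59). The reads of mt-Atp6 were 77, 33 and 6 for wild type against 48, 46 and 7 for Tut7-/-, so that it, like Rab10, was lowest at 4 h in each genotype.

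Mapre1 was nearest to Ogt (1.03), the O-GlcNAc transferase, and to Mmachc (1.06), of vitamin B12 metabolism, with mt-Rnr2, a mitochondrial ribosomal RNA, farther off at 2.03. Mmachc had 78, 9 and 17 wild-type reads and 36, 0 and 0 Tut7-/- reads, and was thus at 0 in the same LPS libraries as Mapre1. Nckap1l had no gene near it, since the closest of the 40 lay 2.26 away. It lay 3.17 to 3.56 from the other members, beside a median of 3.27 from it to all of these genes. Its libraries at 0 reads enter these distances through the pseudocount.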

How the data were processed

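Total RNA was ligated to a linker, depleted of rRNA, cut with RNase T1 and amplified with gene-specific forward primers. The deposited tables give raw counts of reads for each Ensembl gene, made by the authors from reads aligned with HISAT2 to mm10. The counter, its strand setting and any removal of duplicates were not found in the sources used here, so overlapping and antisense genes are uncertain. The deposited Il6 lists hold read sequences selected by the authors for linker and primer. Lists for other libraries were not analysed here.

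Members and gene lists were chosen with earlier results of these data known. Shares are of the sum of gene counts and have exact (Clopper-Pearson) intervals. Ratios of shares have exact conditional binomial intervals, and changes of ratios between genes have log-scale intervals from 4 counts. Log2 ratios used a pseudocount of 0.5 read and genes that had at least 10 reads in the pair. A count of 0 was set to a floor of 3 reads, which is 0.00529% to 0.0140% of a library. Named list genes had 30 or more reads (at most 4 per list), and like genes were the 3 closest with 100 or more reads. Nup155 and Hook3 were named after their counts were seen. Reads of the lists were matched on 20 bases. Positions and transcripts are from GENCODE M21 (mm10). Alternatives used TMM factors (edgeR 4.0.16), DESeq2 1.42.0 size factors, other library sums, filters, pseudocounts and thresholds. Python 3.11.15 and scipy 1.17.1 were used, and the interval code was tested on simulated data.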

Additional observations from a re-analysis of the deposited data

Results flagged for a closer look

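With 1 library per condition, these differences between genotypes were not tested. The share of Nckap1l moved in opposite directions in the 2 genotypes. For LPS 4 h against Ctrl its log2 ratio was 5.07 in wild type and -4.72 in the knockout, where the pair held only 6 reads. For LPS 4 h against LPS 2 h it was 1.94 in wild type and -6.46 in the knockout. These values depend on the pseudocount of 0.5 read, because a library of each pair but the wild-type pair of LPS times had 0 reads. The share of Vim for LPS 4 h against LPS 2 h was lower in wild type (-0.39) and higher in the knockout (0.39), and the wild-type value turned under 4 other scalings. The spread between repeat libraries, which these data do not give, cannot be told apart from genotype here.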

How the results depend on the processing

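No paired analysis was possible because each group has 1 library. For the same reason no replicate could be left out. All 49 changes of ratios between members stayed within their intervals with a pseudocount of 2 reads. So did all 41 log2 ratios of members. Of 162 counts of members under an alternative, 114 stayed within 1.5 times. Vim and Actr2 are among the 10 most abundant genes left out of 1 library sum.

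For LPS 2 h against Ctrl in wild type, 3 members were lower and 0 higher. Lower were 1 without the 10 most abundant genes and 0 with the median gene at 0, and 1 was higher in these 2 settings, with TMM or DESeq2 size factors and with no filter. Rab10 turned to 0.53 with the median gene at 0. In wild type at 4 h, 3 were lower (0 with the median gene at 0) and 1 higher, against 2 higher without the 10 most abundant genes and with TMM or DESeq2 size factors, 3 with the median gene at 0 and 0 at 50 or more reads. With the median gene at 0, Vim turned to 0.094 and Actr2 to 1.11. Mapre1 in wild type, whose intervals include no change, went from -0.56 to between 1.05 and 2.10 at 2 h and between 1.76 and 3.26 at 4 h in the 4 scalings other than the sum without Zc3h12a and Il6.

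For LPS 2 h in the knockout, 4 were lower, against 2 with TMM factors and 1 with DESeq2 size factors, without the 10 most abundant genes or with the median gene at 0. Higher was 1, against 2 in those last 3 and 0 at a 4-fold threshold. Vim turned to 0.24 with the median gene at 0. Rab10 turned to 0.62 with TMM factors, 1.06 with DESeq2 size factors, 1.03 without the 10 most abundant genes and 1.68 with the median gene at 0. In the knockout at 4 h, 4 were lower, against 1 in each of these 4 scalings, and 0 were higher, against 3 with the median gene at 0. Without the 10 most abundant genes and with the median gene at 0, Vim turned to 0.013 and 1.33 and Rab10 to 0.25 and 1.56. Actr2 turned to 0.072 with TMM factors, 0.32 with DESeq2 size factors, 0.66 without the 10 most abundant genes and 1.97 with the median gene at 0.

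For LPS 4 h against LPS 2 h in wild type, 1 was higher, against 2 with the median gene at 0 and 0 at 50 or more reads or at 4-fold. Vim turned to 0.28 with TMM factors, 0.32 with DESeq2 size factors, 0.010 without the 10 most abundant genes and 0.42 with the median gene at 0. In the knockout, 1 was lower, against 2 with DESeq2 size factors or without Zc3h12a and Il6, and 1 higher, against 0 with DESeq2 size factors or at 4-fold.

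For knockout against wild type in Ctrl, 0 were lower, against 1 in all 5 other scalings, and 1 higher, against 2 with no filter and 0 at 50 or more reads or at 4-fold. At 2 h and at 4 h, 1 and 2 were lower, against 0 at 50 or more reads. At 4 h, 1 was higher, against 0 with TMM factors, DESeq2 size factors, without the 10 most abundant genes, with the median gene at 0 and at 4-fold, and Vim turned to -0.0082 with TMM factors. In the search of the Il6 lists, matching any 20 bases after the primer, chosen after seeing the data, gave 6 Rab10 reads instead of 5 in wild-type LPS 4 h, no change in the other lists, and 1 Actr2 read in Tut7-/- LPS 4 h. Nckap1l and Mapre1, at 105 and 80 reads in all, are limited most by depth.

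Counts of all genes stayed within 1.5 times in 101 of 162 cases. Over the other scalings, 104 lower and 28 higher genes became 63 to 93 and 32 to 61 for LPS 2 h against Ctrl in wild type, and 107 and 28 became 59 to 106 and 30 to 67 at 4 h. In the knockout, 126 and 28 became 71 to 115 and 32 to 63, and 121 and 21 became 67 to 116 and 24 to 59. For 4 h against 2 h, 48 and 26 became 36 to 54 and 25 to 40 in wild type, and 41 and 31 became 40 to 47 and 27 to 38 in the knockout. Between genotypes the scalings kept all counts within 1.5 times. Filters and thresholds moved the counts further by construction, since they set how many genes enter. Over all alternatives, lower genes ranged for LPS against Ctrl from 23 to 366 and higher genes from 5 to 105.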
